A study of Homo sapiens with 4 samples.

Results

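The interferon-stimulated genes described here are 45 genes named by symbol, all of which were found among the 26506 genes of the RNA-seq tables. They hold 3 sensors of foreign RNA, 4 transcription factors, 6 genes of ISG15 conjugation and ubiquitin transfer and 2 PARP family members. There are also 10 effectors directed at RNA and its translation, 4 large GTPases and 10 further induced proteins. The other 6 are grouped under membranes and virus entry or release, with CMPK2, a nucleotide kinase, placed among them. They were named as known interferon targets and not by a threshold on these values, but with earlier results of these data known. RNA-seq was performed on HeyC2 and SKOV3, 2 human ovarian cancer cell lines. Each line was transfected with 3 µg of the pCMV6/TET1 plasmid, which drives full-length TET1 (a DNA demethylase) from a viral promoter, or with the empty plasmid, and both arms were then kept in 400 µg/ml Geneticin. The labels call the empty-plasmid arm Wild-type and the other arm TET1 overexpressed. Below they are the control and TET1 libraries. There was 1 library per arm, 4 in all, so no difference has a replicate check and no p-value is given. Each library is a selected population, and whether it came from 1 clone or many is not given in the sources used here.

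Interferons are secreted proteins that bind paired receptors on the cell surface and activate the kinases JAK1, JAK2 and TYK2. For type I and type III interferons, STAT2 and IRF9 are part of a complex that binds the interferon-stimulated response element, a DNA motif near the start of many antiviral genes. Interferon-gamma acts mainly through another motif, the gamma-activated site, and IRF1 and IRF7 carry the response further. Many of the induced proteins sense or degrade viral RNA, block its translation or hinder the entry and release of virus particles. In tumor cells, part of this gene set can be transcribed without added interferon.

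Values are FPKM, fragments divided by transcript length and by the mapped fragments of the library, so levels are per length. The deposited TET1 columns carry a factor of 3.23 (HeyC2) or 1.35 (SKOV3) that equalises GAPDH between the arms, and were divided by it here. With the factor taken out, GAPDH in HeyC2 was 5417 FPKM in the control and 1675 in TET1, and in SKOV3 2248 and 1671. A relative log2 change is the log2 of the TET1 FPKM plus 1 over the control FPKM plus 1, minus the median of this quantity over all genes with a mean of at least 1 FPKM in the 2 libraries compared. A gene is called higher or lower where this change reaches 1.5-fold, which is 0.585 on the log2 scale. Where the ratio of 2 FPKM values is given, its 95% interval covers counting error only and is approximate, since fragments were estimated from the step size of the values. The estimated depth was about 6685000 to 7240000 fragments per library.

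TET1 itself was 0.20 FPKM in the HeyC2 control and 0.52 in HeyC2 TET1 (about 14 and 33 fragments), and 0.43 and 1.8 in SKOV3 (29 and 113). In HeyC2 its mean was under 1 FPKM, at a relative change of 0.28, so it was not called. In SKOV3 it reached the minimum on its TET1 level and was called higher (0.78). ERBB2, amplified in SKOV3, was 1282 and 1464 FPKM in the SKOV3 libraries against 20.1 and 23.8 in HeyC2. KRT8 (386 to 775 FPKM) and KRT18 (193 to 379) were present in all 4 libraries, while EPCAM was under 1 FPKM and CDH1 at 0 in both HeyC2 libraries. The SKOV3 libraries differed in epithelial markers in both directions. KRT19 was 255 FPKM in the control and 0.46 in TET1, and KRT7 was 1537 and 22.0. CDH1, in contrast, was 2.24 and 6.3, and PAX8 was 74.6 and 131. Of 8 fibroblast and endothelial markers, 3 reached a mean of 1 FPKM in SKOV3, on their TET1 level. All 3 were called higher, where 20.7% of all genes were: COL1A1 (0.32 and 27.7 FPKM), LUM (0.51 and 4.32) and COL1A2 (0.13 and 2.12). In HeyC2, KRT7 was 290 FPKM in the control and 1125 in TET1. Of 8 fibroblast and endothelial markers, 3 reached a mean of 1 FPKM there, and 2 were called higher, where 12.5% of all genes were. These were CDH5, an endothelial cadherin (18.9 and 94.6 FPKM), and COL1A1 (0.57 and 1.76, on its TET1 level). PDGFRB (1.54 and 1.12) was within 1.5-fold. The other endothelial markers, VWF (0.42 and 0.17) and PECAM1 (0.09 and 0.03), were under the minimum. Of 10 leukocyte markers, 5 or 6 were at 0 in each library, and their summed level (57.8 and 93.4 FPKM in HeyC2, 15.3 and 23.2 in SKOV3) was mostly CD68. The part of these differences in the values below was not tested, and in bulk RNA fewer expressing cells and less RNA per cell cannot be told apart.

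The response element was sought in the promoters of the members. Promoter windows run from 250 bases before to 50 bases after the start in RefSeq (GRCh38.p14), and 35 of the 45 members had an entry. The core of the response element, GAAANNGAAA on either strand, was found in 25 of these 35 (71.4%), against 4.38% of all 27305 genes with a promoter. A variant, GGAANNGAAA, was found in 10 (28.6%, against 3.47%), and either form in 28 (80.0%, against 7.49%). The gamma-activated site, TTCNNNGAA, was found in 9 (25.7%, against 9.38%). The 3 motifs can overlap each other, and a match is a run of letters, not a measured binding site. The windows of DTX3L and PARP9 overlap, as do those of CMPK2 and RSAD2, so some matches count for both genes of a pair. The CpG count per 300 bases had a median of 15 in the members (range 0 to 45) and 16 over all genes. Below, each 300-base window is printed 5′ to 3′ on the gene's strand, with matches to the core or the variant in capitals. OAS1 (chr12:112906712-112907011) and OAS3 (chr12:112938224-112938523) are neighbours on the plus strand that moved apart in SKOV3. IFITM1 (chr11:313790-314089, plus strand) had the greatest relative rise of the members in SKOV3, and IRF9 (chr14:24161015-24161314, plus strand), shown as a window with no match, and IFIT1 (chr10:89392373-89392672, plus strand) were among the next. IFI27 (chr14:94110486-94110785, plus strand, the first of its windows) had the greatest fall there, and ISG15 (chr1:1013247-1013546, plus strand) moved to opposite sides of the all-gene median in the 2 lines.
OAS1: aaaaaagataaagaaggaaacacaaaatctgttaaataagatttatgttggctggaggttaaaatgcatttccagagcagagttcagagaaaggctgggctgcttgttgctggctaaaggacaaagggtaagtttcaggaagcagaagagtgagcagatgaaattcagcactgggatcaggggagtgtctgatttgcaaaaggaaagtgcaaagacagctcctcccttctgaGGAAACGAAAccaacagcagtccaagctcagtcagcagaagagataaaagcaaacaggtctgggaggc
OAS3: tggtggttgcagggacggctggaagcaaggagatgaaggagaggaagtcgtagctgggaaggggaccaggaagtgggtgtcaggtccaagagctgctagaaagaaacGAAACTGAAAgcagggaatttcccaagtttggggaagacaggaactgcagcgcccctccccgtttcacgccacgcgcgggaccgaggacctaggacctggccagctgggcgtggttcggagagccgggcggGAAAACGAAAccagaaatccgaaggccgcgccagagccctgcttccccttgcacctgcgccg
IFITM1: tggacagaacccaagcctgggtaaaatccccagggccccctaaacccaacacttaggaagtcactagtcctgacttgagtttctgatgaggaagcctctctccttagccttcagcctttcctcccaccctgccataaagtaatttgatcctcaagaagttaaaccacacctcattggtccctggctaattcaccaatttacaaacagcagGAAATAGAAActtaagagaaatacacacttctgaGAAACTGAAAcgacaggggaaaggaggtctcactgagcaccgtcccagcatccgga
IFIT1: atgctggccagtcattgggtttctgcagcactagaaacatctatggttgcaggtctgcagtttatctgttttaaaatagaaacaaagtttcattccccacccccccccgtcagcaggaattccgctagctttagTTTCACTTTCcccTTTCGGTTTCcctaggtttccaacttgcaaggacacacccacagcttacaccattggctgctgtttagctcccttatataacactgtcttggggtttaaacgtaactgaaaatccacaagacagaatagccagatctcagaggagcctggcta
IFI27: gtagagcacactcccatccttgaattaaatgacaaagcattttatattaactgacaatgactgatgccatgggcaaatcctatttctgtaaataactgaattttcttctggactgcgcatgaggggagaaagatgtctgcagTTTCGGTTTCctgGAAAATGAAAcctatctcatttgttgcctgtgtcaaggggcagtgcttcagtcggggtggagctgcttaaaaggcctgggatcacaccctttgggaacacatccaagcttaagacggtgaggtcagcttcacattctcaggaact
ISG15: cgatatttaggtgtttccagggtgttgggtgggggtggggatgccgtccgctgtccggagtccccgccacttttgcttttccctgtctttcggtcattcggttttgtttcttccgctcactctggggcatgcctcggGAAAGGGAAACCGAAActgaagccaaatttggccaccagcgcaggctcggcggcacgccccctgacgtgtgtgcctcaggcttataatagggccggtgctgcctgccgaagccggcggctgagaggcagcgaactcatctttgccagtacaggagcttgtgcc
IRF9: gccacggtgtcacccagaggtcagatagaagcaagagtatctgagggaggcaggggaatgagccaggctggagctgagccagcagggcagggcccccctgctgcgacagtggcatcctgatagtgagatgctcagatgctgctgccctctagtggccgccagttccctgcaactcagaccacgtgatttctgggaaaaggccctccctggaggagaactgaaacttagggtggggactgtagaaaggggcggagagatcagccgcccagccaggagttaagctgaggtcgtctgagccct
In OAS1 the only match of the first 2 motifs is the variant GGAAACGAAA, which begins 18 bases before the start. OAS3 has the core 143 and 12 bases before its start, and IFITM1 has it 40 and 6 bases before. The IFIT1 window carries the core on the opposite strand, 116 and 103 bases before the start. In ISG15 the 2 core matches, 113 and 107 bases before the start, share 4 letters and so appear as a single run of capitals. IFI27 holds the core 108 and 95 bases before the start of this window, and the gamma-activated site between them at 101 bases. IRF9 has neither the core nor the variant, and a gamma-activated site 63 bases before the start.

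**Figure D1:**
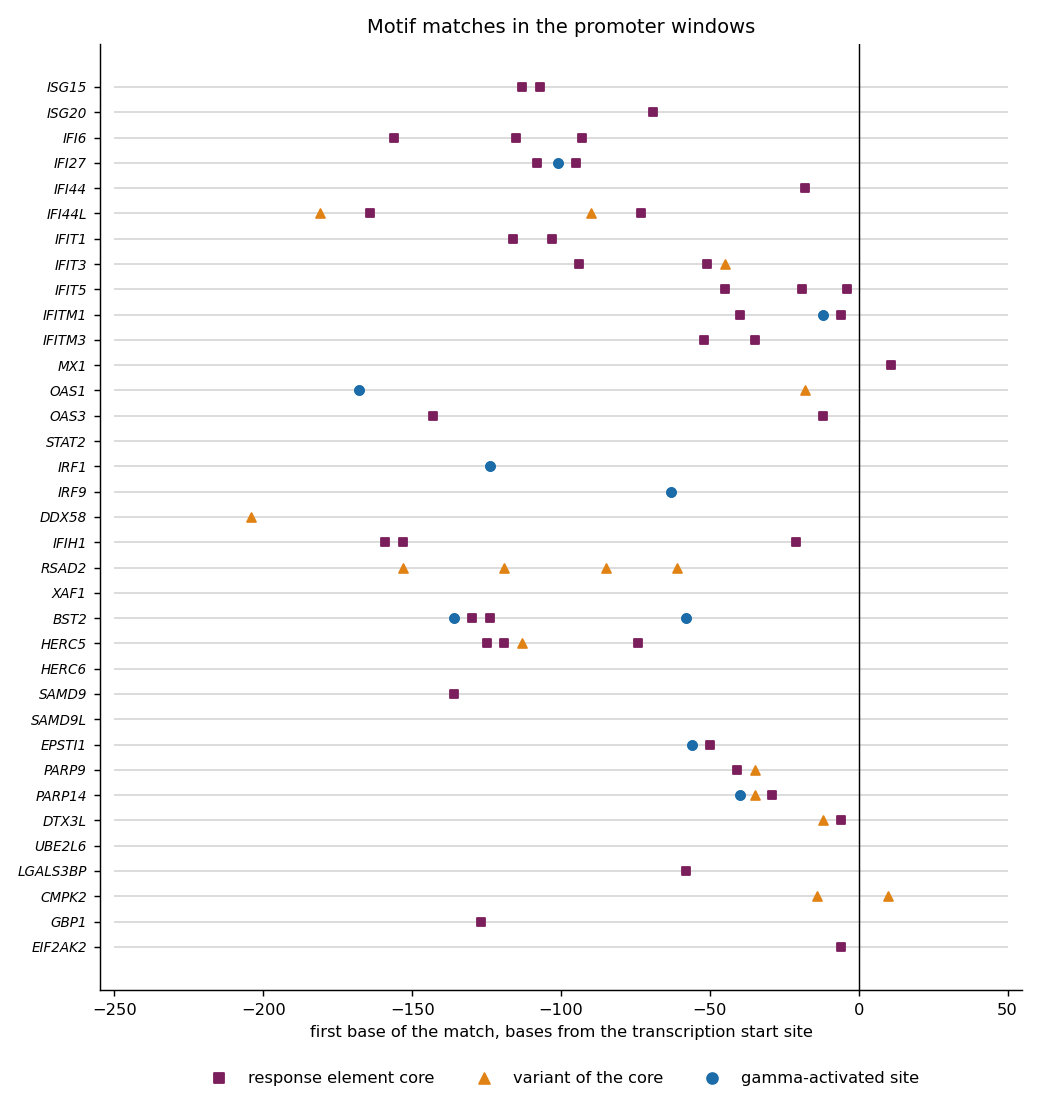
Matches to the response element core (squares), its variant (triangles) and the gamma-activated site (circles) in the promoter windows of 35 members, by the distance in bases of the first matched base from the transcription start site, with 1 window per gene. Core or variant matches are present in 28 members and lie mostly upstream of the start, and 7 members, among them STAT2 and IRF9, have none.

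In HeyC2, most members had a relative change below 0. Of 33 members with a mean of at least 1 FPKM, 9 were at least 1.5-fold lower relative to all genes (27.3%, against 9.19% of 11896 genes) and 2 were higher (6.06%, against 12.5%). The median relative change was -0.35 with quartiles of -0.60 and -0.04, where the quartiles over all genes were -0.28 and 0.30. The relative change was below 0 in 25 members and above 0 in 8. The 9 lower members were OAS1, OAS3, OAS2, IFI44, IFIT2, ISG15, DTX3L, IFI6 and PARP9, and the 2 higher ones were GBP2 and IFITM1. LGALS3BP, a secreted glycoprotein, lay just under the limit at 0.58. Of the 33, OAS1, OAS2 and OAS3 were under 1 FPKM in TET1 and so passed on their control level, and the other 30 were at 1 FPKM or above in both libraries.

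In SKOV3, more members were higher in TET1 than lower. Of 34 members that passed, 13 were at least 1.5-fold higher (38.2%, against 20.7% of 13016 genes) and 6 were lower (17.6%, against 18.2%). The median relative change was 0.37 with quartiles of -0.02 and 0.72, and the quartiles over all genes were -0.44 and 0.48. Without the centring, 28.6% of all genes were higher and 11.5% lower in SKOV3, with 17 members higher and 5 lower, and in HeyC2 14.6% of all genes were higher and 7.41% lower, with 3 members higher and 7 lower. With upper-quartile scaling in place of the centring, 25% of all genes were higher and 14.3% lower in SKOV3, with 15 members higher and 6 lower. The higher members were IFITM1, TRIM22, IRF9, IFIT1, IFI6, STAT2, OAS1, IFIT2, IRF7, IFITM3, IFIT5, BST2 and UBE2L6, and the lower ones were IFI27, DHX58, OAS3, HERC6, USP18 and HERC5. OAS1, TRIM22 and CMPK2 passed on their TET1 level and DHX58 on its control level. The summed FPKM of the 45 members was 933.8 (control) and 1023 (TET1) in HeyC2, and 1080 and 1845 in SKOV3, of which IFITM3 alone made up 321, 388, 406 and 760.

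**Figure D2:**
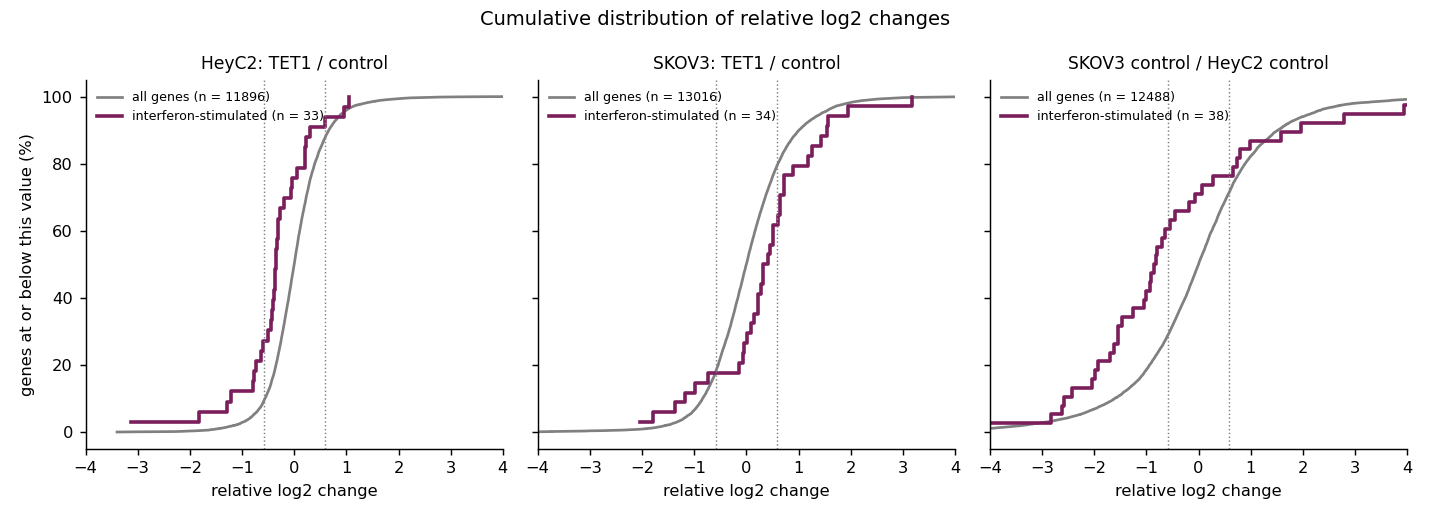
Cumulative share of genes (%) by relative log2 change for the members that passed (purple) and all genes that passed (grey), in HeyC2, in SKOV3 and between the controls, with dotted lines at 1.5-fold either way. The members lie to the left of all genes in HeyC2 (median -0.35) and to the right in SKOV3 (median 0.37), except for the 6 lower members of SKOV3 at the left end.

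The start of the pathway was almost silent at the level of ligands. All 21 interferon genes listed were at 0 in both HeyC2 libraries, and in SKOV3 only IFNE, a type I interferon of the female reproductive tract, was above 0, at 0.32 FPKM in the control and 0.92 in TET1. The receptors and kinases were expressed in both lines. Of 9 receptor and kinase genes, all 9 passed in HeyC2 and had a relative change below 0, with 0 past 1.5-fold. Among all genes in HeyC2, 50% were below 0, 12.5% were called higher and 9.19% lower. In SKOV3, 8 passed, 2 were higher and 1 was lower, where 20.7% of all genes were higher and 18.2% lower. The higher genes in SKOV3 were IFNAR2, a chain of the type I receptor (9.93 FPKM in the control and 18.7 in TET1, relative change 0.66), and IL10RB, a chain of the type III receptor (7.0 and 17.1, 0.99). The lower one was IFNGR1, the ligand-binding chain of the gamma receptor (34.3 and 22.8, -0.76). In HeyC2 the 9 genes lay between -0.52 (JAK2) and -0.10 (IFNAR1), with TYK2, JAK1, IL10RB, IFNGR1, IFNGR2, IFNAR2 and IFNLR1 among them. The others that passed in SKOV3 lay between -0.17 (IFNAR1, TYK2) and 0.16 (IFNGR2), with JAK1 and JAK2 among them.

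The sensors recognise viral RNA in the cytosol and can start interferon production. DDX58, which encodes RIG-I, was 5.47 FPKM in the HeyC2 control and 4.27 in TET1, and 1.66 and 1.77 in SKOV3. IFIH1, which encodes MDA5, was 3.75 and 3.09 FPKM in HeyC2 and 1.40 and 1.62 in SKOV3. Their relative changes lay between -0.35 and -0.07 in both lines, none past 1.5-fold. DHX58 encodes LGP2, a helicase that modulates the other sensors. It was listed at 0 in the HeyC2 control and 1.08 FPKM in HeyC2 TET1 (about 18 fragments), and 3.69 and 0.55 in SKOV3. The level thus stood higher in TET1 in HeyC2, where the mean was under 1 FPKM, and lower in TET1 in SKOV3, at a relative change of -1.79 and a 6.71-fold lower FPKM (3.25 to 15.0).

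The transcription factors bind the promoters of many other members. In HeyC2, STAT2 was 24.6 FPKM in the control and 20.6 in TET1, and in SKOV3 it was 7.12 and 21.3. IRF9, which gives the complex its DNA binding, was 24.1, 19.2, 4.58 and 17.8 FPKM in the same order. In both genes the SKOV3 control stood apart from the other 3 libraries. The relative change of STAT2 was -0.31 in HeyC2 and 1.27 in SKOV3 (FPKM ratio 2.99, 2.57 to 3.53), and that of IRF9 was -0.37 and 1.56 (ratio 3.89, 2.80 to 5.46). IRF7, which drives interferon-alpha genes, was 11.5 and 9.22 FPKM in HeyC2 and 8.61 and 17.1 in SKOV3, with relative changes of -0.35 and 0.72. IRF1, which drives part of the gamma response, was 13.2 and 9.92 FPKM in HeyC2 and 8.75 and 13.9 in SKOV3, at -0.43 and 0.41. All 4 were thus within 1.5-fold in HeyC2 and below the all-gene median, as 50% of all genes are. In SKOV3, 3 of 4 were called higher, where 20.7% of all genes were. Parts of IRF1 (580 bases), IRF9 (308 bases) and, among the effectors, OAS1 (92 bases) overlap a gene on the opposite strand, and whether the library kit marked strand is not given in the sources used here. On the same strand, a further GENCODE gene covers 1513 of the 1626 transcript bases of IRF9, 4471 of 4628 of DDX58, 351 of 668 of IFITM1, 216 of 812 of IFI6 and 31 of 1006 of IFITM2, which no strand setting would separate.

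ISG15 is a ubiquitin-like protein that is attached to other proteins and also secreted. Its level in HeyC2 was 46.1 FPKM in the control and 27.8 in TET1, and in SKOV3 29.3 and 42.2. The HeyC2 control and SKOV3 TET1 were the high libraries. The relative change was -0.77 in HeyC2, with the control higher by 1.66-fold in FPKM (1.35 to 2.30), and 0.32 in SKOV3, within 1.5-fold. The enzymes around ISG15 moved differently in SKOV3. UBE2L6, its conjugating enzyme, was 24.6 FPKM in the control and 43.5 in TET1 (0.60). HERC5, the main ISG15 ligase in human cells, was 19.6 and 13.1 FPKM (-0.75), its relative HERC6 was 8.36 and 3.71 (-1.18), and USP18, which removes ISG15 and restrains the receptor, was 3.10 and 1.37 (-0.98). Of the 6 genes of this group, 1 was higher (16.7%, against 20.7% of all genes) and 3 were lower (50%, against 18.2%) in SKOV3. Of the 4 that passed in HeyC2, 2 were lower (50%, against 9.19%), ISG15 and DTX3L. In HeyC2, HERC5 (0.12 FPKM in the control, listed at 0 in TET1) and USP18 (0.14 and 0.24) were under the minimum. HERC6 was 2.95 FPKM in the HeyC2 control and 4.09 in HeyC2 TET1 (0.31), within 1.5-fold. DTX3L, a ubiquitin ligase, and PARP9, its partner, lie head to head on chromosome 3, overlap by 139 bases on opposite strands and have overlapping promoter windows with core and variant matches. DTX3L was 9.20 and 5.42 FPKM in HeyC2 (-0.73) and PARP9 was 4.29 and 2.64 (-0.60). In SKOV3, DTX3L was 8.02 and 10.9 FPKM (0.21), PARP9 was 9.62 and 16.2 (0.50), and PARP14, another ADP-ribosyltransferase, was 10.4 and 17.6 (0.51), all within 1.5-fold.

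The effectors directed at RNA held the largest fall of HeyC2 and several of the rises of SKOV3. All 10 passed in HeyC2 with a relative change below 0, where 50% of all genes lay. Of the 10, 4 were called lower (40%, against 9.19% of all genes). OAS1, OAS2 and OAS3 among these were under 1 FPKM in TET1 and passed on their control level. The OAS enzymes make oligoadenylates that activate RNase L. In HeyC2, OAS1 was 9.34 FPKM in the control and 0.23 in TET1, and in SKOV3 it was 0.76 and 3.53. The estimated fragments were 101, 2, 8 and 34, so the low levels rest on few fragments. The relative change was -3.13 in HeyC2, an FPKM 40.6-fold lower than in the control (12.6 to 391), and 1.17 in SKOV3, an FPKM 4.64-fold higher (2.09 to 11.5). OAS3 was 5.74, 0.98, 13.1 and 5.24 FPKM in the same order of libraries. It was thus lower in TET1 in both lines, by 5.86-fold in HeyC2 (4.25 to 8.38; relative change -1.83) and 2.50-fold in SKOV3 (2.14 to 2.92; -1.37). OAS2 was 2.33 and 0.42 FPKM in HeyC2 (-1.29, 5.55-fold, 2.98 to 10.6) and 0.44 and 0.39 in SKOV3, under the minimum. The 3 genes follow each other within chromosome 12, with OAS1 at 113343661 to 113371024, OAS3 at 113375856 to 113414265 and OAS2 at 113416200 to 113449528 (GRCh37, plus strand).

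The IFIT proteins bind foreign RNA ends and stall their translation, and their genes lie together on chromosome 10. In HeyC2, IFIT2 was 10.51 FPKM in the control and 5.94 in TET1, and in SKOV3 it was 1.31 and 3.88. Its relative change was -0.79 in HeyC2 and 0.89 in SKOV3 (FPKM ratio 2.96, 1.95 to 4.71). IFIT1 was 4.12, 2.90, 1.10 and 5.99 FPKM, with relative changes of -0.45 and 1.54 (ratio in SKOV3 5.45, 3.71 to 8.13). For both genes the SKOV3 control was the lowest library. IFIT5 was 5.43 and 3.74 FPKM in HeyC2 (-0.50) and 3.39 and 6.87 in SKOV3 (0.65), while IFIT3 was 14.8 and 15.1 (-0.04) and 4.89 and 6.48 (0.15). EIF2AK2, the kinase PKR that halts translation, was 12.8 and 9.87 FPKM in HeyC2 and 13.7 and 17.02 in SKOV3, within 1.5-fold in both. OASL, an OAS-like protein that makes no oligoadenylate, was 2.41 and 1.71 FPKM in HeyC2 (-0.39). In SKOV3 it was listed at 0 in the control and 1.51 in TET1 (about 31 fragments). ISG20, an exonuclease, was 1.87 and 1.32 FPKM in HeyC2 and 0.82 and 0.83 in SKOV3.

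**Figure D3:**
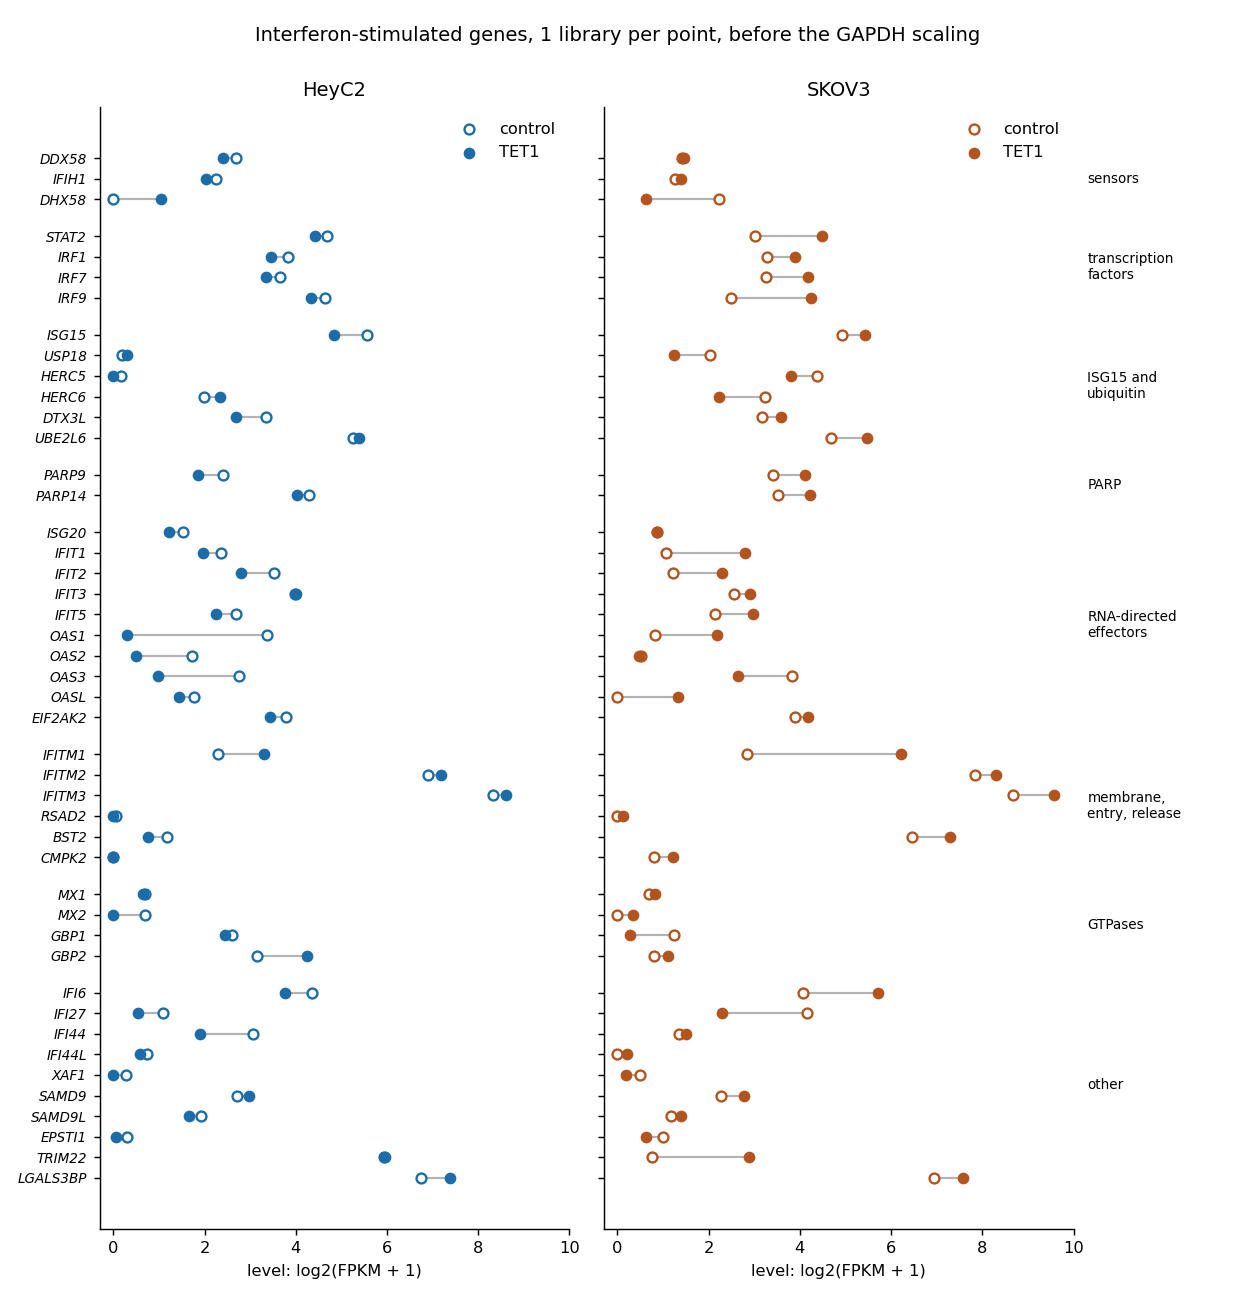
Level of each of the 45 members as log2(FPKM + 1), 1 library per point, for control (open) and TET1 (filled) libraries of HeyC2 and SKOV3, ordered by role and before the GAPDH scaling. The widest gaps are OAS1 in HeyC2 (9.34 and 0.23 FPKM) and IFITM1 in SKOV3 (6.19 and 73.4 FPKM), and IFITM3 is the highest member in every library.

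Of the 6 members grouped here under membranes and virus entry or release, those that passed had a relative change above 0, 3 of 3 in HeyC2 and 5 of 5 in SKOV3, where 50% of all genes did. The 3 in HeyC2 were the IFITM genes, and the 5 in SKOV3 included CMPK2, an enzyme placed in this group. The IFITM proteins block fusion of viruses with endosomes or the cell surface. In HeyC2, IFITM1 was 3.90 FPKM in the control and 8.93 in TET1, and in SKOV3 it was 6.19 and 73.4. SKOV3 TET1 thus stood far above the other 3 libraries. The relative change was 0.96 in HeyC2 (about 15 and 30 fragments, FPKM ratio 2.29, 1.13 to 4.33) and 3.18 in SKOV3 (21 and 240 fragments, ratio 11.9, 7.92 to 20.4). IFITM3 was 321 and 388 FPKM in HeyC2 (0.22) and 406 and 760 in SKOV3 (0.71), and IFITM2 was 119 and 145 (0.23) and 226 and 316 (0.29). IFITM1 and IFITM3 are near-identical copies in part. Of the 100-base stretches, 7.38% of those of IFITM1 and 8.20% of those of IFITM3 also occur in the other gene. Their split is uncertain at least there, and shorter or inexact shared stretches were not counted. BST2, or tetherin, which holds budding virus at the cell surface, was 87.2 and 156 FPKM in SKOV3 (0.64). In HeyC2 it was 1.26 and 0.70 FPKM, under the minimum, at a relative change of -0.47. CMPK2, a mitochondrial nucleotide kinase next to RSAD2, was at 0 in both HeyC2 libraries. In SKOV3 it was 0.74 and 1.31 FPKM (0.22) and passed on its TET1 level.

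Among the GTPases, GBP2, which attacks pathogen-containing membranes, was 7.90 FPKM in the HeyC2 control and 18.1 in HeyC2 TET1 (1.04; ratio 2.29, 1.94 to 2.68), the largest rise of the members in HeyC2. It was 0.75 and 1.14 FPKM in SKOV3. GBP1 was 5.03 and 4.50 FPKM in HeyC2 (-0.19) and 1.37 and 0.21 in SKOV3, and a further 1.98% of its 100-base stretches occur in its pseudogene. None of the 4 GTPases passed in SKOV3. Of the remaining induced proteins, IFI6, a small membrane protein that hinders apoptosis, was 19.4 and 12.6 FPKM in HeyC2 (-0.64) and 15.8 and 51.0 in SKOV3 (1.44; ratio 3.22, 2.51 to 4.37). IFI27 in SKOV3 was 16.7 FPKM in the control and 3.92 in TET1 (-2.04; 4.26-fold lower, 2.34 to 8.15), and 1.14 and 0.45 in HeyC2. IFI44 was 7.37 and 2.75 FPKM in HeyC2 (-1.22; 2.68-fold, 1.77 to 4.37) and 1.54 and 1.83 in SKOV3 (-0.04). TRIM22, a ubiquitin ligase that restricts several viruses, was 60.6 and 60.8 FPKM in HeyC2 (-0.05) and 0.68 and 6.37 in SKOV3 (1.94; ratio 9.37, 5.39 to 18.5). SAMD9, SAMD9L and LGALS3BP lay between -0.33 and 0.58 in both lines. MX1, MX2, IFI44L, RSAD2, XAF1 and EPSTI1 were under the minimum in both lines. MX1, the best known marker of an interferon response, was 0.62 and 0.57 FPKM in the HeyC2 libraries and 0.61 and 0.78 in those of SKOV3.

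The 2 lines were then compared over the 28 members that passed in both. In 17 of them the relative change was below 0 in HeyC2 and above 0 in SKOV3, against 20.6% of 11136 genes. These 17 were ISG15, IFI6, IFIT1, IFIT2, IFIT3, IFIT5, OAS1, STAT2, IRF1, IRF7, IRF9, SAMD9L, PARP9, PARP14, DTX3L, TRIM22 and EIF2AK2, several of them by small amounts. IFIT3 and TRIM22 in HeyC2 and SAMD9L in SKOV3 changed sign with another scaling. A further 6 (IFITM1, IFITM2, IFITM3, SAMD9, UBE2L6 and LGALS3BP) were above 0 in both lines, against 25.7% of genes, and 4 (IFI44, OAS3, DDX58 and IFIH1) were below 0 in both, against 29.5%, where the SKOV3 values of IFI44, DDX58 and IFIH1 were above 0 with no centring. HERC6 alone was above 0 in HeyC2 and below 0 in SKOV3, against 24.2%. With the 1.5-fold limit in both lines, IFI6, IFIT2 and OAS1 were lower in HeyC2 and higher in SKOV3 (1.38% of genes), and no member had the opposite pattern (1.77%). IFITM1 was higher in both (3.56%) and OAS3 lower in both (2.54%). The difference between the lines was not tested, since each line has 1 library per arm.

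**Figure D4:**
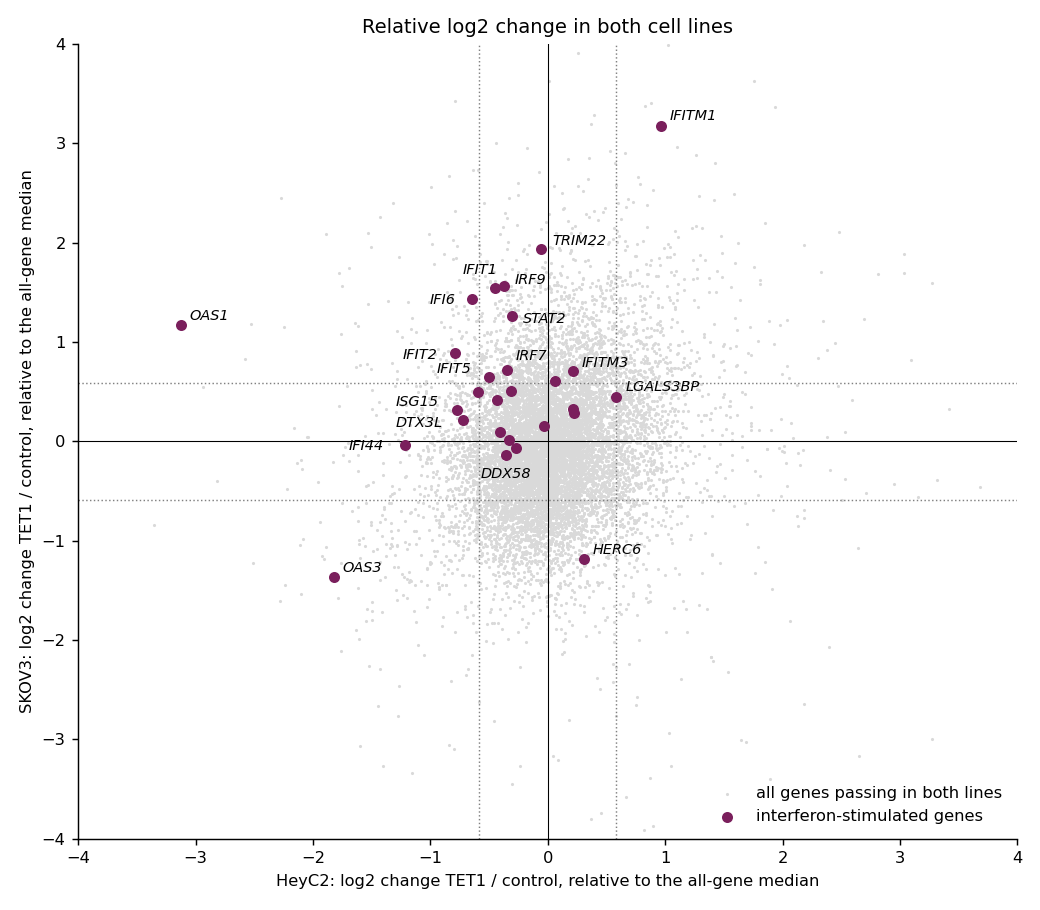
Relative log2 change, TET1 over control, in HeyC2 (x axis) and SKOV3 (y axis) for the 28 members that passed in both lines (purple) and the 11136 genes that passed in both (grey, of which 13 lie outside the axes), with dotted lines at 1.5-fold. Most members lie in the upper left, below 0 in HeyC2 and above 0 in SKOV3, with OAS3 low and IFITM1 high in both.

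The controls of the 2 lines started from different levels. Of 38 members with a mean of at least 1 FPKM over the 2 controls, 23 were at least 1.5-fold lower in SKOV3 than in HeyC2, where 29% of 12488 genes were, and 9 were higher, where 28.6% were. Without the centring, 37.8% of all genes were higher and 21.9% lower in the SKOV3 control, with 9 members higher and 18 lower. The median relative difference was -0.84, and the quartiles over all genes were -0.73 and 0.70. Of the 38, 6 were under 1 FPKM in the SKOV3 control and 3 in the HeyC2 control. The largest differences toward HeyC2 were TRIM22 (60.6 FPKM in HeyC2 and 0.68 in SKOV3, 89.1-fold), OAS1 (9.34 and 0.76, 12.3-fold), GBP2 (7.90 and 0.75, 10.53-fold), IFIT2 (10.51 and 1.31, 8.02-fold) and IRF9 (24.1 and 4.58, 5.25-fold). Those toward SKOV3 were BST2 (87.2 FPKM in SKOV3 and 1.26 in HeyC2, 69.2-fold), HERC5 (19.6 and 0.12, about 3 fragments in HeyC2), IFI27 (16.7 and 1.14, 14.7-fold), DHX58 (3.69, and listed at 0 in HeyC2) and USP18 (3.10 and 0.14, about 2 fragments in HeyC2). The SKOV3 control enters both this comparison and the change in SKOV3, so an extreme value in it moves both, in opposite directions. For TRIM22 the relative difference between the controls was -5.46 beside a change of 1.94 in SKOV3, for OAS1 -2.82 beside 1.17, for IRF9 -2.43 beside 1.56 and for IFIT2 -2.58 beside 0.89. For IFI27 the pair was 2.78 and -2.04, for DHX58 1.96 and -1.79, for USP18 1.58 and -0.98, for HERC5 3.93 and -0.75, and for BST2 5.02 and 0.64. The HeyC2 control is shared with the change in HeyC2, and an extreme value in it moves both in the same direction. For OAS1 the change in HeyC2 was -3.13 and for IFIT2 -0.79, but for TRIM22 it was -0.05. For GBP2 it was 1.04, beside -2.61 between the controls.

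**Figure D5:**
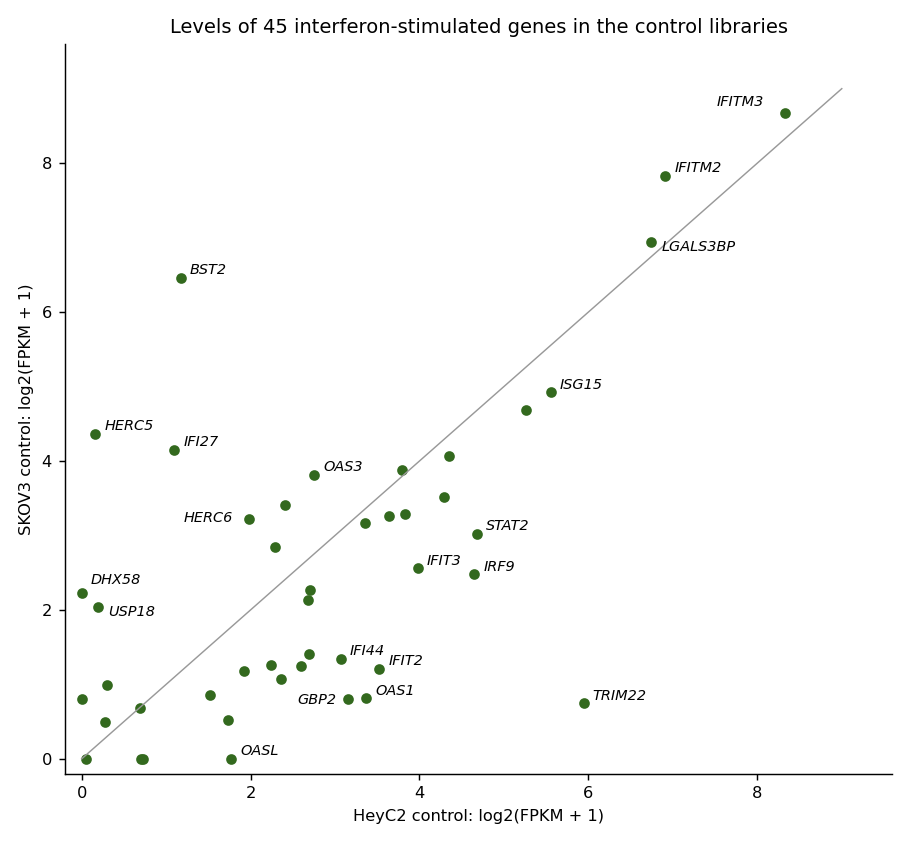
Level of the 45 members as log2(FPKM + 1) in the HeyC2 control (x axis) and the SKOV3 control (y axis), 1 point per gene, with the line of equal levels. TRIM22 (60.6 and 0.68 FPKM) and OAS1 lie far below the line, and BST2 (1.26 and 87.2 FPKM), HERC5 and IFI27 far above it.

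Members with and without the response element in the promoter window were set side by side. The 10 members with no promoter entry are in none of these groups. Of them, 7 passed in HeyC2 (1 higher and 2 lower), 6 in SKOV3 (3 higher and 2 lower) and 9 between the controls (3 higher and 6 lower). In HeyC2, 20 members with a core or variant match passed, of which 1 was higher and 7 lower, with a median relative change of -0.38. The 6 that passed without a match (HERC6, IRF1, IRF9, SAMD9L, STAT2 and UBE2L6) had 0 calls and a median of -0.32, where 12.5% of all genes were higher and 9.19% lower. In SKOV3, 22 with a match gave 7 higher and 3 lower, with a median of 0.32, and the 6 without gave 3 higher and 1 lower, with a median of 0.51, where 20.7% of all genes were higher and 18.2% lower. Between the controls, 23 with a match gave 5 higher and 12 lower in SKOV3 (median -0.71). The 6 without gave 1 higher and 5 lower (median -0.93), where 28.6% of all genes were higher and 29% lower. By CpG content, 16 members at or below the all-gene CpG count gave 8 higher and 2 lower in SKOV3 (median 0.55), and 12 above it gave 2 higher and 2 lower (median 0.27). In HeyC2, 16 at or below it gave 1 higher and 3 lower (median -0.30), and 10 above it gave 0 higher and 4 lower (median -0.42). Between the controls, 18 at or below it gave 3 higher and 11 lower in SKOV3 (median -0.87), and 11 above it gave 3 higher and 6 lower (median -0.81), where 28.6% of all genes were higher and 29% lower. The groups are small, and no difference between them was tested.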

How the data were processed

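Total RNA from the 4 cell populations was sequenced as paired-end TruSeq libraries. Per the labels, the authors aligned the reads to hg19 with Bowtie2 2.2.6 and quantified them with RSEM 1.2.17, and deposited FPKM, with 1 table per cell line. The annotation and any filter are not given in the sources used here. The deposited TET1 columns lie on steps of 0.01 FPKM times 3.23 (HeyC2) or 1.35 (SKOV3), in 100% of 1220 and 2637 distinct values below 40 FPKM, and were divided by these factors. A pseudocount of 1 FPKM, a minimum mean of 1 FPKM over the 2 libraries, centring on the all-gene median and a 1.5-fold limit were used. The median before centring was 0.06 in HeyC2, 0.19 in SKOV3 and 0.27 between the controls. With 1 library per group there is no test and no p-value.

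Depth and fragments per gene were estimated from the value steps and the canonical transcript length, with exact (Clopper-Pearson) 95% intervals that cover counting error only. Over 13088 genes, Spearman's rho was 0.96 between the HeyC2 libraries, 0.90 between the SKOV3 libraries and 0.71 to 0.74 between the lines. Gene positions came from GENCODE on GRCh37 and promoters from RefSeq on GRCh38.p14, each matched by symbol. The script was tested on simulated data with Python 3.11.15, numpy 2.4.6, pandas 2.3.3 and scipy 1.17.1, and figures used matplotlib 3.10.9.

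The members and the lists of further genes were chosen with earlier results of these data known. All 45 members could be named. Values in every library were given for the 5 largest rises and 5 largest falls per line, members past 1.5-fold in opposite directions, ISG15, the 4 transcription factors and the 3 sensors. From other lists, receptor and kinase genes that passed were named (1 gene of their list is not reported here), and elsewhere at most 3 genes past 1.5-fold in both lines. Alternatives were other pseudocounts, filters, scalings and a 2-fold limit.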

Additional observations from a re-analysis of the deposited data

Results flagged for a closer look

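The changes of 3 members past 1.5-fold went opposite ways in the 2 lines, which drew attention to them. The relative log2 change of OAS1 was -3.13 in HeyC2 and 1.17 in SKOV3, a difference of 4.30, that of IFI6 was -0.64 and 1.44, a difference of 2.08, and that of IFIT2 was -0.79 and 0.89, a difference of 1.67. With 1 library per arm the differences were not tested. OAS1 rests on about 2 fragments in HeyC2 TET1 and 8 in the SKOV3 control.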

How the results depend on the processing

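No paired analysis was possible because each line has 1 library per arm and the labels give no replicate numbers, so within a line no spread is left. A fit over both lines with the line as a block would leave 1 residual degree of freedom and was not run. No member past 1.5-fold changed direction under the alternatives tried, but 6 members close to 0 did (main size at most 0.13): IFIT3 and TRIM22 in HeyC2 and IFI44, IFIH1, DDX58 and SAMD9L in SKOV3. In HeyC2, the lower members (9 of 33, against 9.19% of all genes) were 5 of 20 with a minimum mean of 5 FPKM (7.86%), 15 of 38 when the deposited values were used and then centred (12.9%), and 4 of 33 at a 2-fold limit (2.83%), where 1 member was higher (4.11%). In SKOV3, the members' median (0.37) was 0.23 with no filter, 0.57 with a minimum of 5 FPKM, 0.48 with upper-quartile scaling and 0.56 with no centring. At 2-fold, 7 members were higher (10.1% of all genes) and 4 lower (6.49%). Between the controls, the median (-0.84) was -0.71 with no filter, -0.49 with a minimum of 5 FPKM and -0.57 with no centring. With that minimum, 11 of 24 members were lower (28.4% of all genes) and 7 higher (27.3%), and at 2-fold 16 were lower (18.6%) and 5 higher (17.8%). IFI6 in HeyC2 missed the 1.5-fold limit with the deposited values (-0.57) and with no centring (-0.58), as did PARP9 in HeyC2 (-0.54) and HERC5 in SKOV3 (-0.55) with no centring. With a pseudocount of 0.1, 62 of 67 member values stayed within the spread of genes of like expression, and 5 moved further from 0, among them OAS1 in HeyC2 to -4.90, and with the deposited values 2 moved, OAS1 (-4.18) and OAS2 (-2.11) in HeyC2. Chosen after the values were seen, leaving out the OAS genes gave 2 higher and 6 lower members in HeyC2 (median -0.33), and leaving out the IFITM genes gave 11 higher and 6 lower in SKOV3 (median 0.32). At this depth, low levels rest on few fragments, and short transcripts do so at higher FPKM than long ones. OAS3 at 0.98 FPKM in HeyC2 TET1 had about 42 fragments, and IFITM1 at 3.90 FPKM in the HeyC2 control about 15.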

Other observations

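Further lists around the pathway were counted in the same way, beside 12.5% of all genes higher and 9.19% lower in HeyC2 and 20.7% and 18.2% in SKOV3. Of 34 other interferon-stimulated genes, 31 passed in HeyC2 with 2 higher and 12 lower (median relative change -0.30), and 32 passed in SKOV3 with 7 higher and 3 lower (0.11), where the higher share (21.9%) was near that of all genes. SLFN5, a Schlafen protein, was 24.3 FPKM in the HeyC2 control and 12.4 in TET1 (-0.97), and 3.53 and 16.8 in SKOV3 (1.78). LY6E, a surface protein that restricts virus entry, was 89.1 and 57.5 FPKM in HeyC2 (-0.68) and 51.1 and 107.5 in SKOV3 (0.87). NMI, a partner of STAT proteins, was lower in TET1 in both lines, at 19.97 and 13.4 FPKM in HeyC2 (-0.60) and 13.4 and 9.06 in SKOV3 (-0.70).

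Of 16 genes that lean to interferon-gamma, 9 passed in each line, with 3 lower in HeyC2 (33.3%) and 2 lower in SKOV3 (22.2%, near that of all genes). TAP2, a peptide transporter of antigen presentation, was lower in both, at 13.8 and 8.69 FPKM in HeyC2 (-0.67) and 23.4 and 17.2 in SKOV3 (-0.62). The chemokine genes CXCL9, CXCL10 and CXCL11 were at 0 in all 4 libraries. Of 16 genes of nucleic acid sensing, 3 of 13 that passed were lower in HeyC2 (23.1%) and 1 of 12 was higher in SKOV3 (8.33%, under that of all genes). Of 9 negative regulators, 2 of 8 were lower in HeyC2 (25%) and 2 of 9 in SKOV3 (22.2%, near that of all genes).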
